A study of Homo sapiens with 2 samples.

Results

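The genes described here are 10 members of the Eph receptor and ephrin family, 7 receptors (EPHA1, EPHA2, EPHA4, EPHB2, EPHB3, EPHB4 and EPHB6) and 3 ephrins (EFNA1, EFNB1 and EFNB2), matched by gene symbol among the 23709 genes of the table. All 10 were matched, each to 1 protein-coding RefSeq record. The family has 22 genes in the table, 14 receptors and 8 ephrins, and the 12 that are not among the members are given beside them. The material was Caco-2, an established line from a human colon adenocarcinoma whose cells can take on enterocyte features, grown in DMEM with fetal bovine serum, penicillin/streptomycin and ciprofloxacin. The RNC-mRNA library was made from polyadenylated RNA recovered with ribosome-nascent chain complexes, and the mRNA library from polyadenylated RNA of total RNA. Cells carried no stated treatment or genetic change in either group. With 1 library in each group, differences have no replicate check and carry no p-value. The labels give neither the confluence of the cells nor whether a single culture supplied both preparations.

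Eph receptors are the largest family of receptor tyrosine kinases, and their ligands, the ephrins, are themselves held on the cell surface, so signalling takes place where cells touch. Ephrin-A proteins are anchored by a glycolipid, and ephrin-B proteins cross the membrane and signal back into the cell that carries them. In the mouse intestine, EphB2 and EphB3 are switched on by beta-catenin and TCF factors in the crypt, whereas ephrin-B1 and ephrin-B2 are found higher up, and the pairing keeps the cell layers sorted.

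Levels are RPKM, the authors' read counts scaled to transcript length and to library size, so they can be compared between genes. The RNC-mRNA library held 11083302 reads and the mRNA library 9640364, as worked out from the RPKM values. Each member rested on at least 122 reads in the RNC-mRNA library and at least 85 in the mRNA library. Intervals are 95% intervals of these reads and cover counting error only. Of 8 intestinal epithelial markers, 6 were at 1 RPKM or more in both libraries, among them the adhesion protein EPCAM (273 RPKM in the RNC-mRNA library and 244 RPKM in the mRNA library) and the intestinal transcription factor CDX2 (87.8 and 79.8 RPKM in the same order). KRT20 and LGALS4, markers of mature colonocytes, were below 1 RPKM in the RNC-mRNA library (0.050 and 0.776 RPKM). The 4 endothelial markers, of a cell type in which EFNB2 and EPHB4 are well known, summed to 2.04 RPKM in the RNC-mRNA library and 4.76 RPKM in the mRNA library. PECAM1 made up most of these sums (1.58 and 4.12 RPKM). CDH5 and VWF were detected below 1 RPKM in both libraries, and TEK was listed at 0 in both. The 4 fibroblast markers summed to 37.9 and 66.2 RPKM, the 4 haematopoietic markers to 13.5 and 14.9 RPKM and the 4 neuronal markers to 2.04 and 2.68 RPKM, in the same order. COL1A1 made up most of the fibroblast sums (26.1 and 46.8 RPKM) and CD68 most of the haematopoietic sums (12.5 and 13.0 RPKM). The part of such cell types in the levels of the Eph genes was not tested.

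Because the comparison is between translated and total mRNA, the start codons of the members are shown first. These are the 12 bases before and 6 bases after the annotated start codon, which is in capitals, from GENCODE release 29 transcripts on GRCh38, for the 3 members with the highest and the 3 with the lowest ratio of RNC-mRNA to mRNA.
EFNB2 (chromosome 13, minus strand): agtggcttcgccATGgctgtg
EPHB2 (chromosome 1, plus strand): ggaagcgcagccATGgctctg
EPHA4 (chromosome 2, minus strand): caccggcgaaccATGgctggg
EPHA1 (chromosome 7, minus strand): cggcccggagctATGgagcgg
EFNA1 (chromosome 1, plus strand): aggccccgcgctATGgagttc
EPHB6 (chromosome 7, plus strand): tgaagatgtcccATGgctact

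The context known to favour initiation in vertebrates has A or G at position -3 and G at position 4, counted with the A of the start codon as the first base. All 10 members had G at position 4, against 52.9% of 11559 expressed protein-coding records with a matched transcript. A or G stood at position -3 in 9 of the 10, against 83.7% of those records. EPHB6, which has C at position -3, was the exception, and its annotated 5′ UTR also held an ATG 7 bases before the start codon, out of frame with it. Both features were present in 9 members, among them those with the highest and with the second lowest ratio, against 44.4% of records. An ATG in the 5′ UTR was annotated for 4 members (1 in EPHB4, 3 in EPHB6, 2 in EFNA1 and 4 in EFNB1), against 51.6% of records. The ratios of these 4 genes fell on both sides of the median gene. Annotated 5′ UTRs ran from 13 bases in EPHB2 to 780 bases in EFNB1 (median 167, against 195 over the records). For EPHB2, EPHB6 and EFNA1 the annotated transcript and the length implied by the RPKM values differed by more than 100 bases, so their 5′ UTRs may not be the ones that were counted.

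EPHB4 was the most abundant receptor in both libraries. EPHB2 had the highest translation ratio of the 7 member receptors, within counting error of EPHA4. The translation ratio is log2 of RNC-mRNA RPKM over mRNA RPKM, each with 0.1 RPKM added, relative to the median of the 13402 genes with a mean of at least 1 RPKM. EPHB2, a receptor that repels ephrin-B-bearing neighbours, had 29.5 RPKM in the RNC-mRNA library and 20.5 RPKM in the mRNA library. Its ratio was 0.56 (counting interval 0.45 to 0.68), 1.47-fold above the median gene and at the 91.6th percentile of expressed genes.

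EPHB4, the receptor for ephrin-B2, had 52.5 RPKM in the RNC-mRNA library and 47.8 RPKM in the mRNA library. This ratio of 0.17 (interval 0.090 to 0.26) lay within the middle 50% of expressed genes, which ran from -0.42 to 0.29. Against genes of the same decile of mean RPKM it was 0.0070, at percentile 51.6. EPHB3, which acts with EPHB2 in the crypt, had 10.5 RPKM in the RNC-mRNA library and 11.6 RPKM in the mRNA library. Its interval spanned the median gene (ratio -0.099, interval -0.29 to 0.085).

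EPHB6, which lacks kinase activity and signals through partner receptors, was the least abundant member in the RNC-mRNA library, with 2.81 RPKM there and 3.46 RPKM in the mRNA library. It had the lowest ratio of the 10 members, -0.25, on at least 126 and 135 reads, and its interval (-0.62 to 0.099) also spanned the median gene. Against genes of the same decile of mean RPKM its ratio was -0.095, and EFNA1 (-0.34) and EPHA1 (-0.32) were then lower. The counting intervals of the close relatives EPHB2 and EPHB3 did not overlap. EPHB2 stood at 2.80 times the level of EPHB3 in the RNC-mRNA library (interval 2.53 to 3.11) and at 1.77 times in the mRNA library (interval 1.58 to 1.98). Whether cultures differ by as much was not measured.

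The class A receptors went both ways. EPHA1, the first receptor of the family to be described, had 29.7 RPKM in the RNC-mRNA library and 33.9 RPKM in the mRNA library. Its ratio was slightly below the median gene (-0.15, interval -0.27 to -0.031, and -0.32 against genes of the same level). The strand of reads is not named in the labels, so any reads shared with its antisense gene EPHA1-AS1 cannot be told from its own. That antisense record had 0.072 RPKM in the RNC-mRNA library and 0.186 RPKM in the mRNA library.

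EPHA4, which binds ephrins of both classes, had 4.55 RPKM in the RNC-mRNA library and 3.17 RPKM in the mRNA library. The ratio of 0.55 (interval 0.19 to 0.94) was at the 91.0th percentile. With the 320 and 194 reads implied by its transcript length the interval would be 0.30 to 0.82. The ratio of EPHA4 was close to that of EPHB2. Their order turned round against genes of the same level (EPHA4 0.70, EPHB2 0.46) and against genes of the same length (0.52 and 0.50). EPHA2, an epithelial receptor that is often abundant in carcinomas, had 5.55 RPKM in the RNC-mRNA library and 4.45 RPKM in the mRNA library. Its ratio was 0.35, with an interval that spanned the median gene (-0.053 to 0.78) on at least 122 and 85 reads. Those are the fewest reads that explain its values. At its annotated transcript length of 3964 bases the reads would be 244 and 170 and the interval 0.070 to 0.65, wholly above the median gene.

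**Figure D1:**
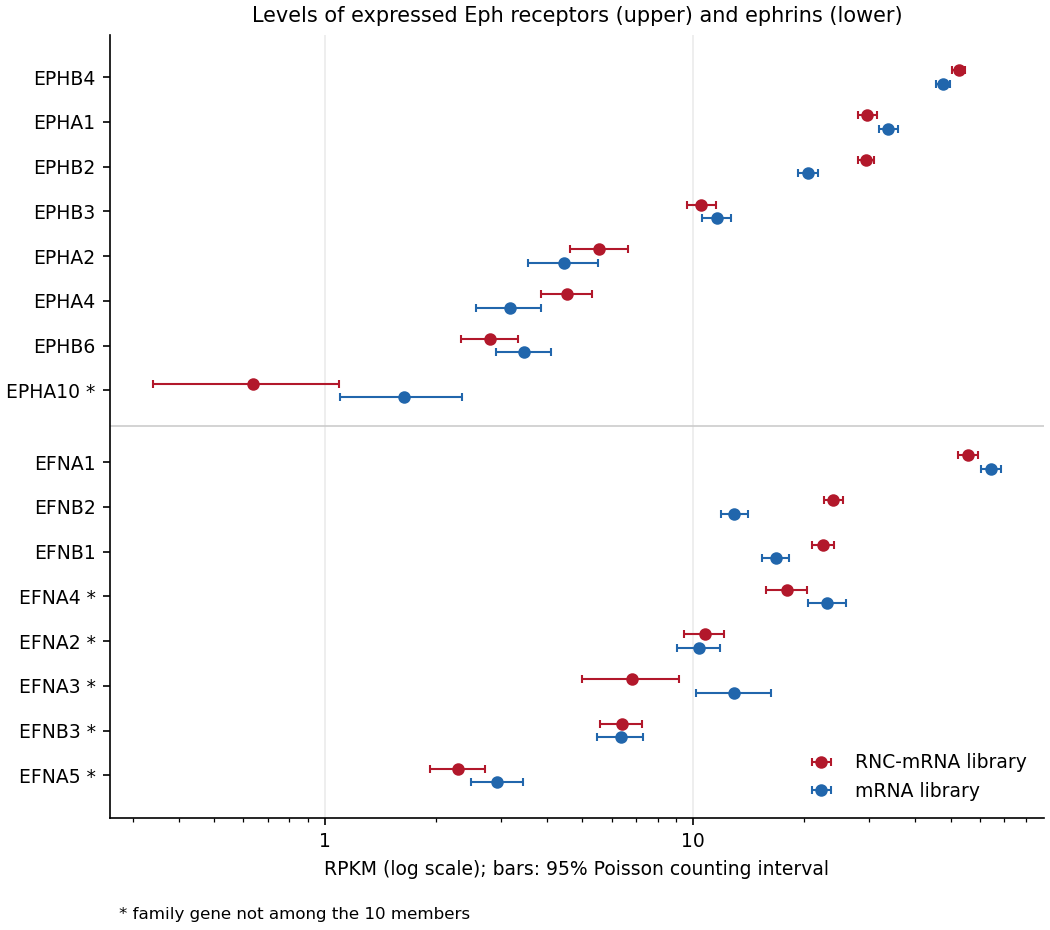
RPKM on a log axis for the 8 expressed Eph receptors (upper) and 8 ephrins (lower), with the RNC-mRNA library in red above the mRNA library in blue; bars are 95% Poisson counting intervals and asterisks mark family genes that are not members. The intervals of EFNB2 and EPHB2 lie apart between the libraries, with the RNC-mRNA library higher, whereas those of EPHB3 and EPHB6 overlap.

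Among the ephrins, EFNB2 had the highest ratio of all members and EFNA1 the highest level. EFNB2, the transmembrane ligand of EPHB4, had 24.0 RPKM in the RNC-mRNA library and 12.9 RPKM in the mRNA library. It was 1.90-fold above the median gene (ratio 0.93, interval 0.78 to 1.08), at the 98.3rd percentile. The value was inside the 2-fold line and the upper limit of its interval outside it. Among expressed genes of the same decile of mean RPKM it was at the 98.7th percentile.

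EFNB1, which shares the EphB receptors with EFNB2, had 22.5 RPKM in the RNC-mRNA library and 16.8 RPKM in the mRNA library (ratio 0.46, interval 0.31 to 0.62). Both ephrin-B members were thus higher in the RNC-mRNA library, and their intervals did not overlap. EFNA1, the main ligand of EPHA2, had 55.7 RPKM in the RNC-mRNA library and 64.5 RPKM in the mRNA library. Its ratio of -0.17 (interval -0.30 to -0.042) was below the median gene by little more than counting error. Against genes of the same decile of mean RPKM it was lower, at -0.34 and percentile 14.8.

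The 5 ephrin genes that are not members were all expressed. EFNA3 had the lowest ratio of any ephrin, with 6.84 RPKM in the RNC-mRNA library and 12.9 RPKM in the mRNA library (-0.87, interval -1.45 to -0.33). That interval rests on the fewest reads, 45 and 74, which would be 135 and 222 at its transcript length. EFNA4 had 17.9 and 23.1 RPKM in the same order (-0.32, interval -0.58 to -0.075). EFNA5 had 2.30 and 2.94 RPKM, and its interval spanned the median gene (-0.30, interval -0.66 to 0.030). EFNA2, with 10.7 and 10.4 RPKM (0.089, interval -0.18 to 0.36), and EFNB3, with 6.39 and 6.35 RPKM (0.048, interval -0.23 to 0.33), were at the median gene within counting error.

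Of the 5 ephrin-A genes, 4 lay below the median gene (median ratio -0.30), and all 3 ephrin-B genes lay above it (median 0.46). The classes overlapped, since EFNA2 was above EFNB3. Against genes of the same decile of mean RPKM, EFNA5 moved above the centre (0.029), and the other ephrins kept their side. EFNA4, EFNA3 and EFNA1 lie next to each other on chromosome 1 with no protein-coding gene between them in RefSeq (GRCh38.p14), all on the plus strand, and all 3 were below the median gene.

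**Figure D2:**
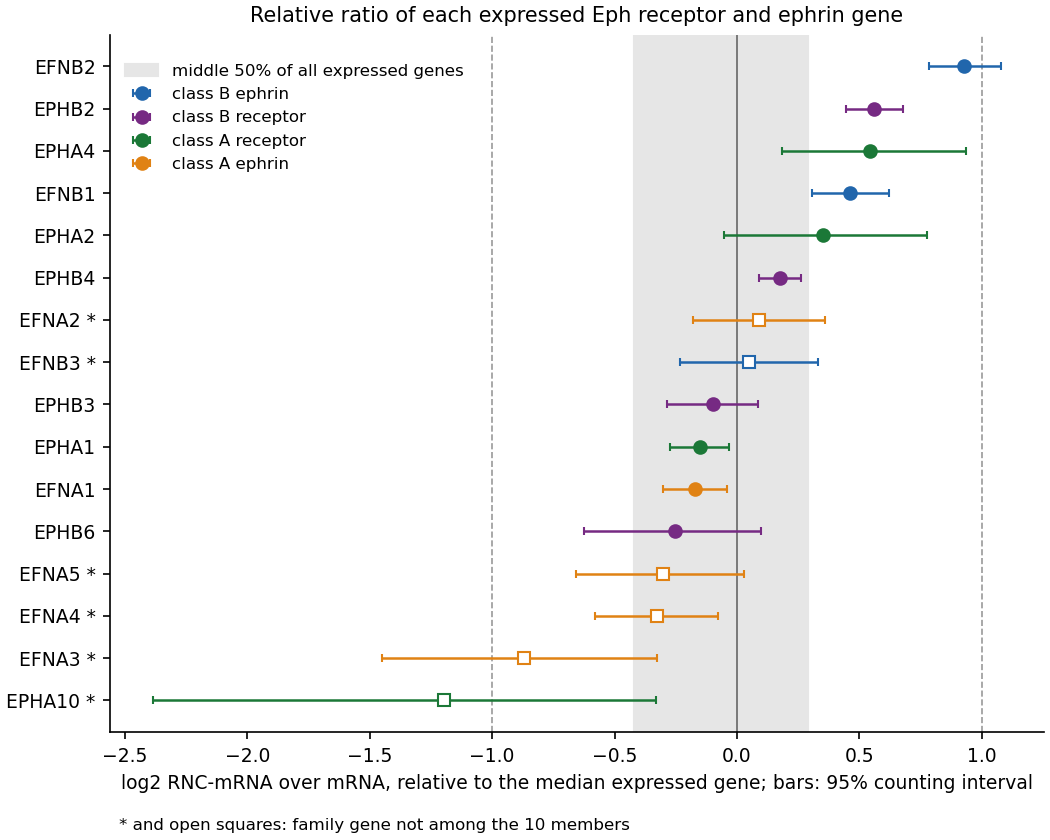
Log2 ratio of RNC-mRNA to mRNA relative to the median expressed gene for 16 Eph receptor and ephrin genes, with 95% counting intervals; filled circles are members, open squares are other family genes, the grey band holds the middle 50% of all expressed genes and dashed lines mark 2-fold. EFNB2 is highest at 0.93 and no member reaches either dashed line, while EPHA10 lies beyond the lower one at -1.20.

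Of the receptors that are not members, EPHA10 alone had a mean of at least 1 RPKM. EPHA10, which like EPHB6 lacks kinase activity, had 0.639 RPKM in the RNC-mRNA library and 1.64 RPKM in the mRNA library, on at least 13 and 29 reads. At the length nearest its annotated transcript the reads would be 39 and 87, and the interval narrower. EPHA10 was 2.29-fold below the median gene (-1.20, interval -2.39 to -0.33 on the fewest reads). Genes of the same decile of mean RPKM had a median of -0.57. Against them EPHA10 was at -0.62, at percentile 31.1. EPHB1, below that mean, had 0.598 and 0.288 RPKM in the same order, with a ratio of 0.88 above that of EPHB2 but a wide interval (0.11 to 2.15) on at least 31 and 13 reads. EPHA6 was at 0.147 and 0.141 RPKM, EPHA8 at 0.036 and 0.042 RPKM, and EPHA3 at 0.016 and 0.018 RPKM. EPHA7 had 0.027 RPKM in the RNC-mRNA library. In the mRNA library it was listed at 0, and a count of 0 allows up to 0.047 RPKM. EPHA5 was listed at 0 in both, which allows up to 0.033 RPKM in the RNC-mRNA library and 0.038 RPKM in the mRNA library.

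No member was 2-fold or more above or below the median gene. Among all 13402 expressed genes, 1.37% were at least 2-fold above it and 11.8% at least 2-fold below. The 10 members had a median ratio of 0.26, with 6 above the median gene and 4 below, and ranged from -0.25 to 0.93. The counting interval lay wholly above the median gene for 5 members (EPHA4, EPHB2, EPHB4, EFNB1 and EFNB2) and wholly below it for EPHA1 and EFNA1. Of all expressed genes, 29.6% lay wholly above and 30.0% wholly below. These shares are not matched for reads, and more reads narrow an interval. Expressed genes had a median of at least 280 reads in the RNC-mRNA library and 258 in the mRNA library. By the fewest reads, EPHA2, EPHA4 and EPHB6 had fewer than this and the other members more. Against genes of the same level EPHB4 was at 0.0070. With the reads at transcript length, chosen after seeing the data, EPHA2 joined the first group, which made 6 above and 2 below. At 1.5-fold, EFNB2 was the single member beyond the line, against 7.44% of expressed genes above it and 19.7% below. Over all 16 expressed family genes the median was -0.026, with 8 above and 8 below, so the members' median depends on which genes of the family are listed.

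The make-up of both pools differed between the libraries. Transcripts of class B receptors made up 70.2% of the summed receptor RPKM in the RNC-mRNA library and 65.9% in the mRNA library. EPHB2 alone made up 21.6% in the RNC-mRNA library and 16.1% in the mRNA library, and EPHA1 21.7% and 26.7% in the same order. Ephrin-B transcripts made up 36.1% of summed ephrin RPKM in the RNC-mRNA library and 24.1% in the mRNA library. EFNB2 took 16.4% in the RNC-mRNA library and 8.63% in the mRNA library, whereas EFNA1 took 38.0% and 43.0%. The sums themselves were close, at 137 RPKM in the RNC-mRNA library and 127 RPKM in the mRNA library for receptors and at 146 and 150 RPKM for ephrins.

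**Figure D3:**
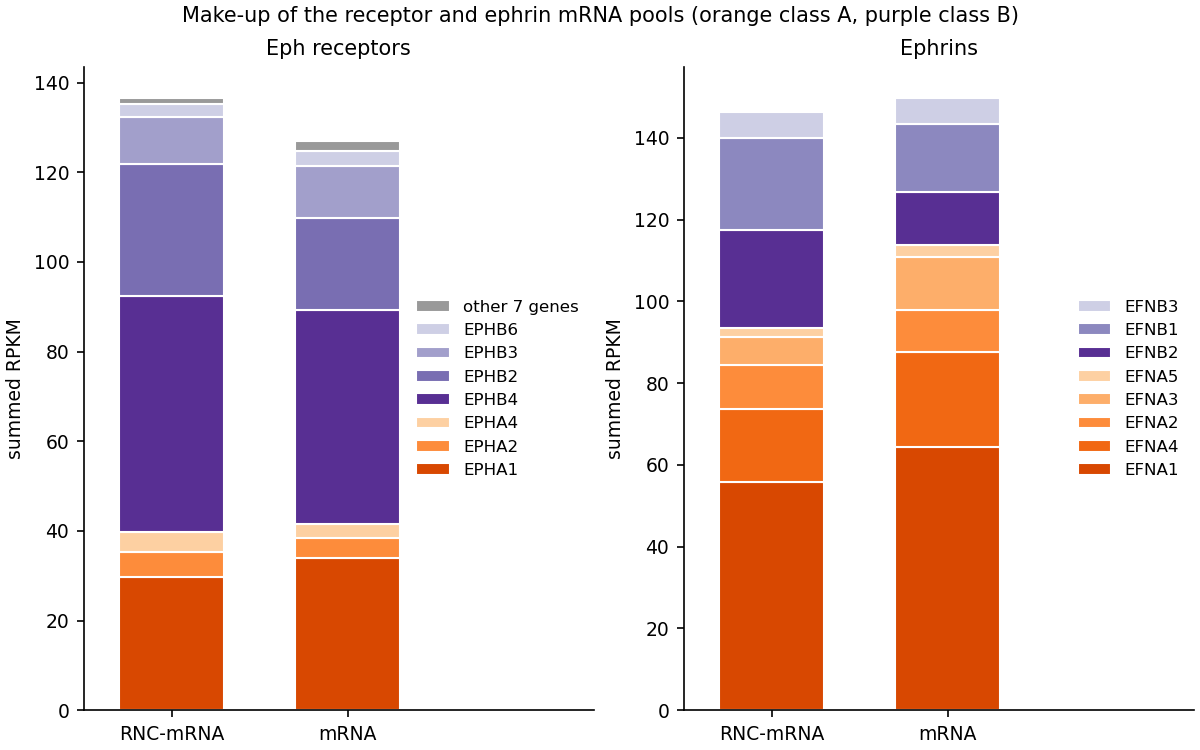
Summed RPKM of the 14 Eph receptors (left panel) and 8 ephrins (right panel), stacked by gene, with the RNC-mRNA library left of the mRNA library in each panel; class A genes are orange, class B genes purple and 7 receptors of low level grey. The purple part of the ephrin bar is larger in the RNC-mRNA library, 36.1% against 24.1%.

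For known ligand and receptor pairs, the level of the ligand over that of the receptor also differed. EFNB2 stood at 0.457 times the level of EPHB4 in the RNC-mRNA library (interval 0.426 to 0.490) and at 0.271 times in the mRNA library (interval 0.246 to 0.298). EFNA1 stood at 10.0 times the level of EPHA2 in the RNC-mRNA library (interval 8.30 to 12.2) and at 14.5 times in the mRNA library (interval 11.6 to 18.3). These intervals overlapped, but they rest on the fewest reads for EPHA2. With its 244 and 170 reads at transcript length they would be narrower, and whether they would still overlap was not worked out. These pairs were chosen after their values were seen.

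In the order of levels, EFNA1 and EPHB4 came first in both libraries. In the RNC-mRNA library they were followed by EPHA1, EPHB2, EFNB2, EFNB1, EPHB3, EPHA2, EPHA4 and EPHB6 among the members. Counting intervals of neighbours overlapped there for EFNA1 with EPHB4, EPHA1 with EPHB2, EFNB2 with EFNB1 and EPHA2 with EPHA4. In the mRNA library the members' order after EPHB4 was EPHA1, EPHB2, EFNB1, EFNB2, EPHB3, EPHA2, EPHB6 and EPHA4. EFNB2 thus stood above EFNB1, and EPHA4 above EPHB6, in the RNC-mRNA library, and both orders were the other way round in the mRNA library. In the mRNA library the counting intervals of EPHB6 and EPHA4 overlapped, as did those of EFNB2 with EPHB3 and of EPHA2 with EPHB6, and those of EFNB1 and EFNB2 did not.

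EPHB4 was among the most abundant receptor tyrosine kinases. Of 58 such genes, Eph receptors included, it ranked 5th in both libraries, after PTK7, DDR1, FGFR2 and FGFR4 in the RNC-mRNA library. EPHA1 ranked 11th in the RNC-mRNA library and 8th in the mRNA library, and EPHB2 12th and 13th in the same order. Eph receptors made up 18.6% of the summed RPKM of the 58 in the RNC-mRNA library and 17.7% in the mRNA library. The 27 expressed kinases outside the family had a median ratio of -0.078, with 11 above the median gene and 16 below (median -0.16 against genes of the same level).

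These 27 ran from -2.0 to 1.37. PDGFRA, a platelet-derived growth factor receptor, had 3.72 RPKM in the RNC-mRNA library and 1.42 RPKM in the mRNA library (1.37, interval 1.08 to 1.79), and the Wnt receptor ROR1 had 6.61 and 3.14 RPKM (1.09, interval 0.86 to 1.38). At the other end were the VEGF receptor FLT1, with 0.887 and 3.96 RPKM (-2.0, interval -2.52 to -1.74), and the MSP receptor MST1R, with 2.29 and 5.09 RPKM (-1.08, interval -1.44 to -0.79). The most abundant, the pseudokinase PTK7 (79.0 and 87.5 RPKM, -0.11) and the collagen receptor DDR1 (77.4 and 78.5 RPKM, 0.018), were near the median gene. Thus 2 of the 27 were at least 2-fold above the median gene and 2 at least 2-fold below, and 0 and 0 of the 10 members. Among all expressed genes 1.37% and 11.8% were. Whether members and other kinases differ in this was not tested.

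Proteins that act downstream of Eph receptors were mostly above the median gene by a small margin. Of 39 listed effectors, 37 were expressed, 30 of them above the median gene and 7 below (median ratio 0.18, and 0.061 against genes of the same level), where 6701 of 13402 expressed genes were above by construction. The small GTPase RHOA, which drives the contraction of repelled cells, had 254 RPKM in the RNC-mRNA library and 174 RPKM in the mRNA library (0.58, interval 0.52 to 0.65). RAC1, a GTPase of protrusion, had 135 and 130 RPKM in the same order (0.091, interval 0.021 to 0.16). PTPN11, the phosphatase SHP2, was highest at 0.61 (25.1 and 16.9 RPKM). VAV3, a guanine nucleotide exchange factor, was lowest and the single effector beyond 2-fold, with 2.48 and 5.42 RPKM (-1.06, interval -1.41 to -0.78).

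Genes of ephrin-B reverse signalling were near the median gene. Of 10 listed, 8 were expressed, 5 above and 3 below it (median 0.047). The sign of this median depended on the processing: it was -0.034 with a mean of at least 5 RPKM, -0.080 with no filter, -0.022 with upper quartile scaling and -0.00090 against genes of the same level. SDCBP, or syntenin, a PDZ protein that binds the tail of ephrin-B, had 42.9 RPKM in the RNC-mRNA library and 42.6 RPKM in the mRNA library (0.049). DVL2, a Dishevelled protein, had 22.0 and 21.1 RPKM (0.10). RGS3, which links ephrin-B to G proteins, was highest at 0.28 (17.9 and 15.1 RPKM), and the scaffold CNKSR1 lowest at -0.46 (7.61 and 10.8 RPKM).

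Of 10 listed genes of proteases that can cut ephrins or Eph receptors, counting gamma-secretase subunits, all were expressed. They lay above the median gene in 7 cases and below it in 3 (median 0.19, and 0.079 against genes of the same level). The gamma-secretase subunit APH1A had 67.6 RPKM in the RNC-mRNA library and 53.8 RPKM in the mRNA library (0.37, interval 0.26 to 0.47), the highest ratio of the list. MMP14, a membrane metalloprotease known to cleave EPHA2, had 44.0 and 74.6 RPKM in the same order (-0.72, interval -0.81 to -0.63). RHBDL2, a rhomboid protease, was the lowest with 0.884 and 2.71 RPKM (-1.48, interval -2.45 to -0.77), on at least 18 and 48 reads. The beta-catenin and TCF genes, which control EPHB2 and EPHB3 in the crypt, were all expressed, 6 of 7 above the median gene (median 0.15, and 0.030 against genes of the same level). CTNNB1, beta-catenin itself, had 58.1 RPKM in the RNC-mRNA library and 53.8 RPKM in the mRNA library (0.15). TCF7L1, the most abundant TCF factor, was lowest with 26.1 and 27.8 RPKM in the same order (-0.054), and TCF7 was highest at 0.44 (18.6 and 14.1 RPKM).

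**Figure D4:**
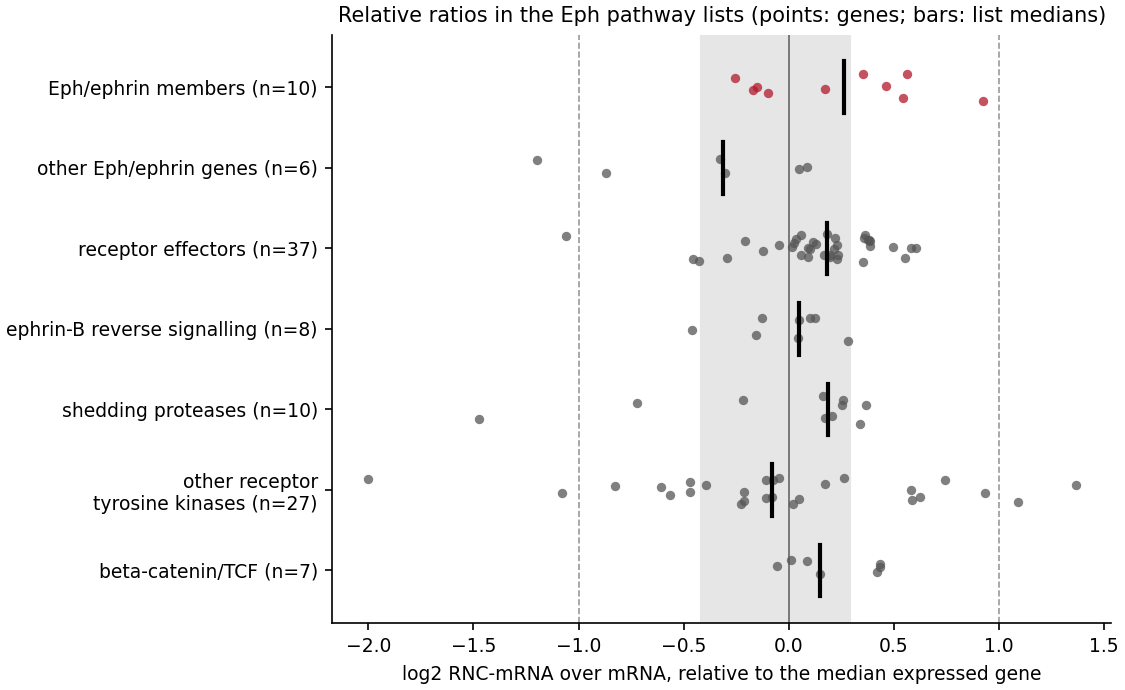
Log2 ratio of RNC-mRNA to mRNA relative to the median expressed gene for each expressed gene of 7 lists, with list medians as black bars, the middle 50% of all expressed genes in grey and 2-fold as dashed lines; members are red. The members run from -0.25 to 0.93 with a median of 0.26, and other receptor tyrosine kinases from -2.0 to 1.37 with a median of -0.078.

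By distance between the pairs of log2 levels in the 2 libraries, the genes nearest to EFNA1 were CTSH, at 0.023, and AP1S1, at 0.025. Those nearest to EPHB4 were SSU72, at 0.0083, and SORD, at 0.011. With 2 libraries such closeness says only that both levels were alike.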

How the data were processed

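RPKM values for 2 Caco-2 libraries, RNC-mRNA and mRNA, were deposited by the authors as 1 table of 23709 genes, with 1 RefSeq record per gene, per the file headers. The genome build was hg19, per the submitters' processing notes; the aligner and counter are not given in the sources used here. Poly(A) RNA was fragmented, copied with random primers and amplified by PCR, per the labels' protocols, with no molecular identifiers or strand marking named. Total reads and whole reads per gene were recovered from the RPKM values with transcript lengths of GENCODE release 29 (EPHA2 by symbol, the other members by RefSeq record), and the fewest reads that explain both values (relative error 2e-07 beyond rounding to 7 digits) gave exact (and, where the true reads are a multiple of them, too wide) Clopper-Pearson 95% intervals of ratios and exact Poisson 95% intervals of levels. At the chosen totals, 2350 genes in the RNC-mRNA library and 2599 in the mRNA library came out as whole reads within rounding. At the best unrelated total, 1110 and 1223 did, in the same order. The recovery and the ratio were tested on simulated data. PCR copies are not independent molecules, so intervals cover counting error only. A count of 0 was taken to allow 3 reads. Ratios used a pseudocount of 0.1 RPKM, which understates the ratio of low genes. Their intervals used no pseudocount, so the ratio of a low gene is shifted within its interval. Both were set relative to the median (-0.038 before centring) of genes with a mean of at least 1 RPKM. A 2-fold difference was used as a rule of size, since 1 library per group allows no test. The members and the lists were chosen with earlier results of these data known. The genes named are all family genes, and for each list the 2 most abundant, those of highest and lowest ratio and all beyond 2-fold, plus the 2 genes nearest to each of the 2 most abundant members; the 3 level pairs were added after values were seen. Alternatives were pseudocounts of 0.01 and 1 RPKM, a mean of at least 5 RPKM, no filter, 3 scalings without centring, NM records alone, at least 10 reads in each library, and centres from genes of the same decile of length or level. Analyses used Python 3.11.15, numpy 2.4.6, pandas 2.3.3 and scipy 1.17.1.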

Additional observations from a re-analysis of the deposited data

How the results depend on the processing

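Over 11 alternatives, the members' ratios gave 108 values, none of which changed sign, and 105 stayed within the member's counting interval. The other 3 came from centring on genes of the same level, where EPHB4 was at 0.0070, EPHA1 at -0.32 and EFNA1 at -0.34. EFNB2 ranged from 0.84 to 0.93. EPHA4 and EPHB6 gave no value at a mean of at least 5 RPKM, which they do not reach. The count of members past the line was 0 at 2-fold under each of these alternatives. At 1.5-fold it was 1 (EFNB2), and 2 (EPHA4 and EFNB2) with genes of the same level as the centre. With genes of the same level as the centre, the median of the receptor effectors was 0.061, against 0.18, that of the proteases 0.079, against 0.19, that of the TCF genes 0.030, against 0.15, and that of other receptor tyrosine kinases -0.16, against -0.078. The reverse signalling median changed sign under 4 alternatives and was lowest with no filter (-0.080). No scaling moved the median of all genes by over 0.1. No paired analysis was possible because each group has 1 library. For the same reason no library could be left out. Depth limits EPHA2, EPHA4 and EPHB6 most, whose intervals are the widest of the members.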
